A study of Mus musculus with 2 samples.

Results

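Binding of the transcription factor MEF2A was read at the cytosolic ribosomal protein genes of CH12.LX, a mouse B-cell lymphoma line of the strain B10.H-2aH-4bp/Wts. The genes were those annotated as protein-coding whose symbol begins with Rpl or Rps and a digit, together with Rplp0, Rplp1, Rplp2 and Rpsa; Rps6k kinases and pseudogenes were left out. The rule found 89 genes among 21537 protein-coding genes with a usable transcription start site (TSS). Of these, 77 are core ribosomal protein genes (46 of the large and 31 of the small subunit) and 11 are paralogues or retrogenes such as Rpl3l and Rpl22l1. The remaining one, Rps19bp1, encodes a protein that binds Rps19 and is not itself a ribosomal protein. The study has 2 biological replicates of 1 group, MEF2A ChIP in CH12.LX, so no comparison between conditions exists and no test across samples could be made. A control library served the peak calls and was not analysed here, and expression was not measured.

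Nearly all ribosomal proteins are needed in equal number, and their genes are among the most highly transcribed of any growing cell. Mammalian ribosomal protein promoters usually lack a TATA box, start in a run of pyrimidines that ties the translation of their mRNAs to growth signals through mTOR, and carry sites for general activators such as the ETS factor GABP, YY1 and Sp1. MEF2 proteins bind an A and T rich consensus of their own, known simply as the MEF2 element, and are best known for muscle, neuronal and lymphocyte genes; in B cells MEF2 factors act downstream of the antigen receptor.

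The promoters that carry the result are shown first, as RefSeq sequence of GRCm38.p6 (mm10) from 180 bases before the TSS, in the direction of transcription. The first 4 belong to the core genes with the strongest peaks of their own. Rpl35 had strong peaks nearby but none of its own, and Rpsa had none within 10 kb. Capitals mark matches to the elements searched, namely ETS (CCGGAAG), Sp1 and KLF (GGGCGG), NF-Y (CCAAT), the E-box (CACGTG), the palindrome TCGCGA and others that had no match in these windows. Positions are counted from the TSS as 0.
Rps3a1, chr3:86142649-86142848, minus strand: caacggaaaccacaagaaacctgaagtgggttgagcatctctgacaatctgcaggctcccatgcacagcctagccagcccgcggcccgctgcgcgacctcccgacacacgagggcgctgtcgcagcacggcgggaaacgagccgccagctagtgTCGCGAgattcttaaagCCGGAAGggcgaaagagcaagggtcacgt
Rpl41, chr10:128549149-128549348, minus strand: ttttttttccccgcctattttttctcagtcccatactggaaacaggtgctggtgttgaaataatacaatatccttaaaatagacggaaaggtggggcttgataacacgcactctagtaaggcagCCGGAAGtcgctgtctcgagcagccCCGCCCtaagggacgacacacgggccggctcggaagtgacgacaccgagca
Rpl23, chr11:97782420-97782619, minus strand: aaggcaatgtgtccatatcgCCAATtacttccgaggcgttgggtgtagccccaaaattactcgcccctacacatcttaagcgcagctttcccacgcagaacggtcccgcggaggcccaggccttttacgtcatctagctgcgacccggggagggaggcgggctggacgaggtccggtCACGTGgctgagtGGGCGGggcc
Rpl27, chr11:101442065-101442264, plus strand: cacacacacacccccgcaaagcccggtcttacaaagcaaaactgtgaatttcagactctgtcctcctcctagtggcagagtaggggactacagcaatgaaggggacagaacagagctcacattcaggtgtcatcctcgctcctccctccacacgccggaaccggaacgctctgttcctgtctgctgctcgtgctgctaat
Rpl35, chr2:39005112-39005311, minus strand: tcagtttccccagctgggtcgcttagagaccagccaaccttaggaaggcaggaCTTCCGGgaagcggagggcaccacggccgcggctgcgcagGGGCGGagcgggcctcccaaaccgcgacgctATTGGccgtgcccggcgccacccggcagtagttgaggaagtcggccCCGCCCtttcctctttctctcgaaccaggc
Rpsa, chr9:120127586-120127785, plus strand: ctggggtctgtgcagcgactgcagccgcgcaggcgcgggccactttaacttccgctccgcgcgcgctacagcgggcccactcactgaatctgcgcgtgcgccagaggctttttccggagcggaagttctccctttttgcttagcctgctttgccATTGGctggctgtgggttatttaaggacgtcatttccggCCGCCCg
None of the 6 windows held the MEF2 consensus. Rps3a1 has the palindrome at −26 and an ETS match at −9, while Rpl23 has an E-box across its TSS, at −3. Rpl27 held no match to any element searched.

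The peak lists come from ChIP-seq, in which DNA bound by the factor is sequenced and a peak marks a stretch where reads pile up. A peak's signal is the authors' own value, and its size has meaning only beside other peaks of the same list. The optimal set on mm10, the longer of the authors' lists of reproducible peaks, holds 31497 peaks, and a separate mm9 list holds 16839. Read depth is unknown. Each replicate list holds 300000 intervals including background, of which the strongest 31497 are used wherever a replicate is counted alone. As a check on the cell type, 7 of the 7 B cell marker genes measured had a peak within 10 kb and 4 of 7 within 1 kb, against 2 of 4 and 0 of 4 T cell markers and 2 of 4 and 1 of 4 myeloid markers; peaks are no measure of whether a gene is expressed.

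Of the 89 ribosomal protein genes, 53 had a summit of the optimal set within 1 kb of the TSS, a share of 59.6% (95% Wilson interval 49.2 to 69.1, covering counting error only), against 28.4% of all protein-coding genes. Within 10 kb the count was 72 of 89, or 80.9% (71.5 to 87.7), against 42.6%. Replicate 1 alone gave 58 of 89 genes within 1 kb, against 29.9% of all genes, and replicate 2 alone gave 61, against 28.9%. Each replicate list by itself therefore placed more ribosomal protein genes near a peak than the optimal set did. On mm9, where 86 of the 89 genes are annotated, 40 (46.5%) had a summit within 1 kb of a transcript start, against 16.5% of all genes, and 50 (58.1%) within 10 kb, against 28.3%.

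The share stood above the 28.4% of all protein-coding genes in both subunits. Among core genes, 50 of 77 (64.9%, 53.8 to 74.7) had a summit within 1 kb, 29 of 46 for the large subunit (63.0%, 48.6 to 75.5) and 21 of 31 for the small (67.7%, 50.1 to 81.4). The intervals of the subunits overlap almost entirely. Of the 11 paralogues and retrogenes only Rpl22l1, a relative of the RNA-binding Rpl22, and Rpl7l1, a relative of Rpl7, had one (18.2%, 5.14 to 47.7), and the interval takes in the 28.4% of all genes. With every annotated start Rps27l, a copy of Rps27, had one too. Many copies are near-identical to their parent gene or to pseudogenes, and how reads that match several places were handled is not given in the sources used here, so a missing peak at a copy and read mapping cannot be told apart.

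**Figure D1:**
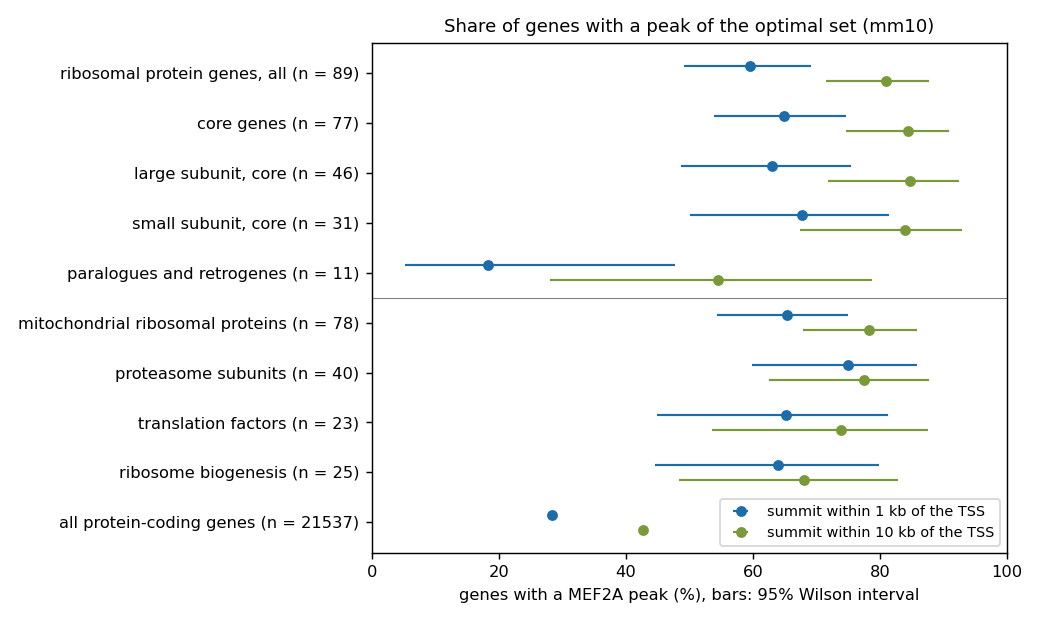
Share of genes with a summit of the optimal mm10 set within 1 kb (blue) and within 10 kb (green) of the TSS, on a percent axis; points are shares and bars 95% Wilson intervals. Ribosomal protein genes (59.6% and 80.9%) lie above all protein-coding genes (28.4% and 42.6%), and so do the other housekeeping lists.

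High shares were not limited to the cytosolic ribosome. Within 1 kb, the 53 of 89 ribosomal protein genes stood beside 51 of 78 mitochondrial ribosomal protein genes (65.4%, 54.3 to 75.0), 30 of 40 proteasome subunit genes (75.0%, 59.8 to 85.8), 15 of 23 translation factor genes and 16 of 25 ribosome biogenesis genes. Their intervals overlap that of the ribosomal protein genes. Of the ribosomal proteins under other names, Fau, which encodes a ribosomal protein fused to a ubiquitin-like protein, had a promoter summit with a signal of 53.6, and Rack1, a scaffold protein on the small subunit, had one of 49.3. Where the mm9 call was set against other genes whose promoter GC content lay in the middle 50% of the ribosomal protein genes' own, the background was 20.0%, against 46.5% of ribosomal protein genes.

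Peaks at the promoter were separated from those of neighbours by asking whether the TSS of another protein-coding gene lay nearer to the summit. By that rule 48 of the 89 genes (53.9%) had an own promoter peak, against 25.6% of all genes, and in 5 more the promoter summit lay nearer another gene's start. A further 9 genes had own peaks beyond 1 kb but none within it. The matching share of all genes is not given, so that count cannot be called particular to these genes. Only neighbours' peaks lay within 10 kb of 10 genes (11.2%, 6.22 to 19.5), against 4.19% of all genes. The other 17 had no peak and are those outside the 72 counted above within 10 kb. The count of neighbours' peaks alone was not stable. It was 7 with replicate 1 alone, against 4.23% of all genes, and 4 with replicate 2 alone, a share near the 4.25% of all genes. With every annotated gene, of whatever kind, as a possible nearer gene it was 13, and the matching share of all genes is not given. In the proteasome list 0 of 40 genes and in the mitochondrial ribosome list 3 of 78 had neighbours' peaks alone.

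Further starts within RefSeq change the 1 kb call of 5 genes. RefSeq lists a further start inside Rpl22 (1290 bp downstream of the outermost one used here), Rps27l (1462), Rps2 (1942), Rpl18 (2604) and Rpl19 (4921), and in each of them a summit lies just upstream of that start, from −58 bp in Rpl18 to −91 bp in Rps2. With every annotated start, 58 of 89 genes had a summit within 1 kb, against 30.9% of all genes. By that count 52 had an own promoter peak and 8 had neighbours' peaks alone, for which shares of all genes are not given. Rpl38 is the same case inside the window: its summit, 707 bp downstream of the outermost TSS, is 55 bp upstream of the further one. For Rpl17 the 2 annotations differ. An mm10 summit lay 1421 bp past its RefSeq TSS and at −5440 bp from BC031181. The mm9 summit lay at −78 bp from its GENCODE start and at −5501 bp from BC031181.

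The strongest promoter peak belonged to Rps3a1, which encodes a protein of the small subunit. Its signal was 154, rank 1088 of 31497, with ranks 786 and 1513 in the lists of replicates 1 and 2. Rpl41, whose product is a very short basic peptide of the large subunit, followed with a signal of 144 and replicate ranks of 801 and 1831. Both summits lay upstream, at −174 bp in Rps3a1 and −131 bp in Rpl41, away from the elements capitalised above.

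Rpl23, a large subunit protein that also binds Mdm2 when ribosome assembly is disturbed, had a signal of 114 with its summit at −1 bp, on the TSS itself. Its replicate ranks were 1894 and 2686. Rpl27 had a signal of 101, replicate ranks of 3015 and 2369 and a summit at 15 bp. Each of these 4 genes ranked high in both replicates, none past 3015 in replicate 1 or past 2686 in replicate 2.

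Below them came Rpl9 with a signal of 86.0, Rps20 with 78.4 and Rpl3, a protein that reaches toward the peptidyl transferase centre, with 75.0. Rps19bp1 had 72.9, Rps15 had 71.1 and Rpl35a, mutated in some human families with Diamond-Blackfan anaemia, had 68.4. Rpl38, which in mouse is needed for the translation of Hox mRNAs, had 62.1, and Rpl5 had 56.7. Rpl11, which with Rpl5 forms the ribonucleoprotein that holds Mdm2 in check, had 53.2 with its summit at −41 bp. In replicate 1 these 9 genes ranked between 1856 (Rpl9) and 12359 (Rpl38), and in replicate 2 between 4985 (Rpl3) and 9935 (Rpl5), so all lie well inside the strongest 31497 of both lists.

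At the other end, Rps10 had a signal of 12.7, ranking 13528 in replicate 1 and 158880 in replicate 2. Rpl14 had 14.5 and Rpl27a had 17.9. Rps6, the small subunit protein phosphorylated downstream of mTOR, was also weak at 22.0, with ranks of 24941 and 46585. The peak of Rps10 ranked within the strongest 31497 of 1 replicate alone, and so did some stronger peaks. Rpl36a, on chromosome X, had a signal of 33.7, near the median of these genes, with rank 233327 in replicate 1 and 13807 in replicate 2, and the peak of Rpl22l1 overlapped no interval of replicate 1.

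**Figure D2:**
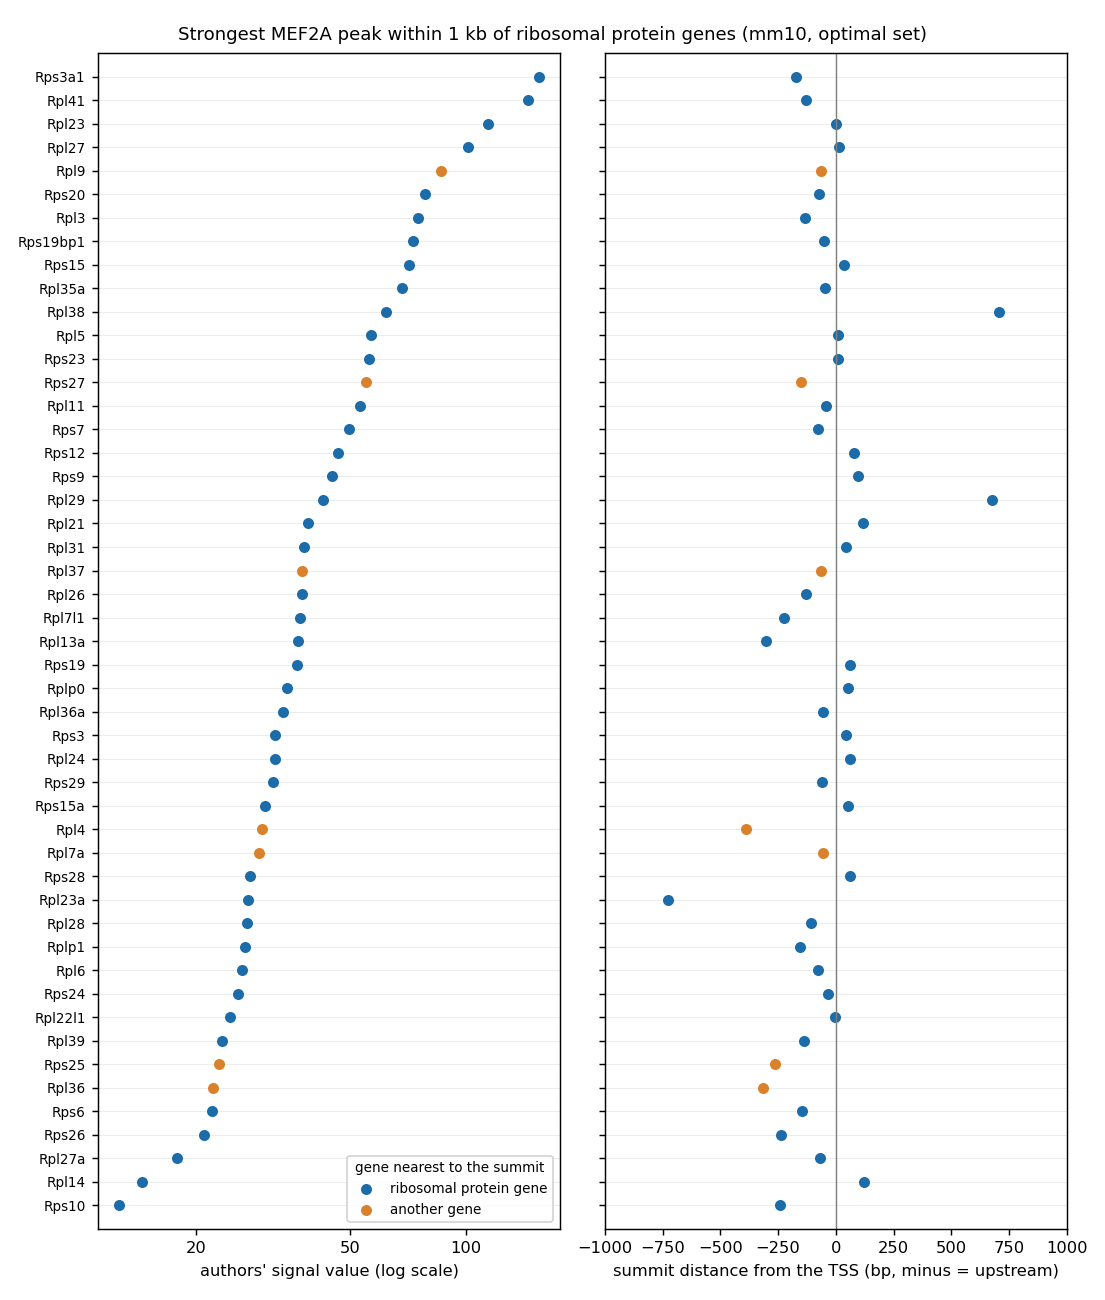
Signal (left, log axis) and summit distance from the TSS in bp (right) of the strongest optimal peak within 1 kb of 49 of the 53 ribosomal protein genes that had one, from Rps3a1 (154) at the top to Rps10 (12.7) at the bottom. Orange marks the 7 genes in which another gene's TSS is nearer to that summit; most points lie within 200 bp of the TSS.

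Between these ends lay further small subunit genes. Rps23, at the decoding centre, had a signal of 56.1, Rps7 had 49.9 and Rps12 had 46.6. Rps19, the gene most often mutated in human Diamond-Blackfan anaemia, had 36.5 with its summit at 61 bp, and Rps3, at the mRNA entry, had 32.0 with its summit at 43 bp. All 5 ranked at or under 31497 in replicate 2 except Rps3, at 51597, and in replicate 1 except Rps19, at 32628. Other small subunit genes with an own promoter peak, Rps6, Rps9, Rps15a, Rps24, Rps25, Rps26, Rps28 and Rps29, had highest promoter signals from 21.0 (Rps26) to 44.9 (Rps9).

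Large subunit genes in the same range were Rpl29 with 42.6, Rpl21 with 38.9, Rpl31 with 38.0 and Rpl26, which also binds the mRNA of Trp53, with 37.7. Rpl13a, which in human myeloid cells leaves the ribosome to silence inflammatory mRNAs, had 36.7 at −302 bp. Rpl24 had 32.0, Rpl28 had 27.1, Rpl6 had 26.3 and Rpl39 had 23.4. Summits of Rpl21, Rpl31 and Rpl24 lay just past the TSS, at 46 to 119 bp, and those of Rpl26, Rpl28, Rpl6 and Rpl39 before it, at −78 to −140 bp.

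The genes that form the stalk where elongation factors dock differed in the optimal set. Rplp0, the stalk base, had a promoter summit at 54 bp with a signal of 34.4, and Rplp1 had one at −154 bp with 26.8. The Rplp1 peak was weakly held, with ranks of 16328 in replicate 1 and 47351 in replicate 2. Its interval did not recur in the conservative set, and Rplp1 had no mm9 summit within 10 kb. Rplp2, the partner of Rplp1, had none within 1 kb on either build. Its strongest peak within 10 kb (37.2) lay narrowly nearer Pidd1, at 4243 bp from that start and −4329 bp from Rplp2.

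Over the 53 genes, the strongest promoter peak had a median signal of 36.7 and a median percentile of 53.6 within the list, against 50 for all 6108 protein-coding genes with a promoter peak. With the list cut into 4 equal parts from the strongest down, 15, 13, 16 and 9 of the ribosomal protein genes fell in each (28.3, 24.5, 30.2 and 17.0%), against 17.7, 32.3, 29.6 and 20.4% of all promoter genes. The lists did not give the same picture. The median percentile was 59.8, against 52.8 for all genes with a promoter peak, in replicate 1, and 49.1, against 48.8, in the conservative set, but 42.3, against 49.0, in replicate 2 and 31.0, against 39.2, on mm9. The strongest of the 4 parts held 31.0% of the ribosomal protein genes' peaks, against 21.0% of all, in replicate 1, but 11 of 61, against 16.5%, in replicate 2, and 12.5%, against 11.5%, on mm9. The median strength of these promoter peaks was therefore above that of other genes in some lists and below it in others, and the larger share in the strongest part was small in replicate 2 and on mm9. The large subunit genes had a median signal of 37.7 and the small subunit genes 32.0, with ranges that overlap nearly throughout.

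Summits sat close to the start. The median signed distance was −57 bp in ribosomal protein genes and −5 bp in all promoter genes, and 58.5% and 44.8% lay within 100 bp of the TSS. On mm9, with every transcript start, 80.0% of the ribosomal protein genes' summits and 54.7% of all lay within 100 bp, and the median was −40 bp in ribosomal protein genes and −44 bp in all, so the upstream offset seen on mm10 was not met there. The summits farthest out within 1 kb of the outermost mm10 TSS were those of Rpl23a at −726 bp, Rpl38 at 707 bp and Rpl29 at 675 bp. On mm9 the summits of Rpl38 and Rpl29 lay at 1 and −15 bp from the nearest transcript start.

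Of the 53 promoter peaks, 52 overlapped an interval of both replicate lists, and for 37 both ranks were at or under 31497. The 2 ranks had a Spearman rho of 0.671 over the 52 genes, as a description of points that share library and caller. The optimal set was selected for reproducibility between these same replicates, and each replicate list includes background. The overlap and the rho are therefore no independent check of the peaks. Replicate 1 gave the better rank for 35 genes and replicate 2 for 17. The same split is not given for all optimal peaks, nor is the share with both ranks at or under 31497. Neither count can therefore be called particular to these genes. In the conservative set, 41 of 53 (77.4%) of these peaks recurred with the same interval, against 73.2% of all optimal peaks.

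**Figure D3:**
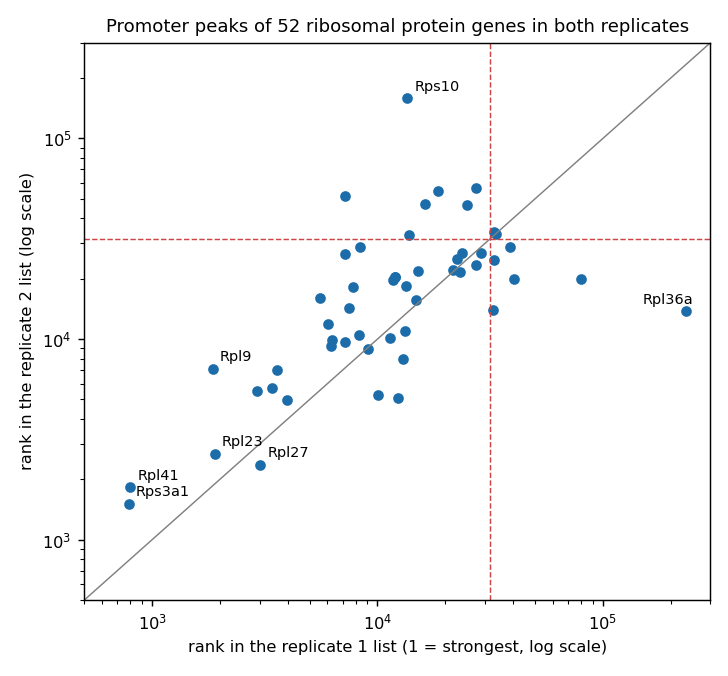
Rank of the promoter peak of 52 ribosomal protein genes in the replicate 1 list (x) and the replicate 2 list (y), both log axes with 1 the strongest; the grey line marks equal ranks and the dashed red lines rank 31497. Rps3a1, Rpl41, Rpl23 and Rpl27 sit near the strong corner in both lists, whereas Rps10 and Rpl36a rank past the line in one of them.

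Several promoter peaks lie close to the starts of neighbouring genes. In 9 ribosomal protein genes a promoter summit was within 1 kb of another gene's start as well. The matching share of all genes is not given. The peak of Rpl9 (86.0) lay at −66 bp from Rpl9 and on the start of Lias, the lipoic acid synthase gene. That of Rps27 (55.1) lay at −151 bp from Rps27 and 84 bp from Rab13, which encodes a small GTPase. Rpl37 shared a peak (37.7) with Card6, Rpl4 (29.7) with Zwilch, Rpl7a (29.1) with Med22, Rps28 (27.6) with Ndufa7, Rps25 (23.0) with Trappc4 and Rpl36 (22.2) with Micos13. For Rpl35a the other start, of Iqcg, was 738 bp away and for Rps28 that of Ndufa7 was 71 bp away; in both the ribosomal protein gene was nearer, whereas in Rpl9, Rps27, Rpl37, Rpl4 and Rpl36 the other gene was. Rpl7a and Rps25 also had weaker promoter summits to which they were the nearer gene. Such summits cannot be assigned to 1 gene by distance. By the mm9 annotation the promoter summits of Rpl37 and Rpl36 lay nearest their own starts, at −99 and −40 bp. The nearest other starts there were 4621 and 3584 bp away. Whether these are the same peaks as on mm10 was not tested.

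Over the wider window, 144 pairs of ribosomal protein gene and peak were found within 10 kb, of 140 different peaks. In 85 pairs the ribosomal protein gene was the nearest gene and in 59 another gene was. For 23 of the 72 genes with a peak the strongest one was nearer another gene, 18 of these beyond 1 kb. Among the 10 genes with the highest signals within 10 kb, 5 owed them to an own promoter peak, 4 to a peak nearer another gene and 1 to an own distal peak.

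Rpl35 is the clearest case. The peak of 346, rank 66 in the optimal set and ranks 111 and 44 in replicates 1 and 2, lay at chr2:39011380-39011660 (mm10), at −6382 bp from Rpl35. It is inside Arpc5l, an actin nucleation complex subunit gene, 3447 bp past that gene's TSS. On mm9 the peak at rank 69, at −5882 bp from Rpl35, lay in an intron of Arpc5l. The other peaks near Rpl35, with signals of 69.8, 58.9 and 52.2, were also nearer Arpc5l or Wdr38, and none lay within 1 kb of Rpl35. The Rpl35 promoter printed above therefore carried an ETS match, 2 Sp1 and KLF matches and an NF-Y match without a MEF2A summit in either list.

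Rpl23a, Rpl18, Rpl7a and Rpl24 follow in that order. The Rpl23a peaks of 104 and 93.5 lay inside Tlcd1 and Nek8, more than 6 kb downstream of Rpl23a, and its own promoter peak had a signal of 27.3. The Rpl18 peak of 80.3 was 11 bp from the start of Sphk2, a sphingosine kinase gene, and 58 bp upstream of the further start of Rpl18. For Rpl7a the peak of 76.5 was 154 bp upstream of Surf6, and for Rpl24 that of 66.3, at 7517 bp past its outermost TSS, was inside Zbtb11. The promoter peaks of Rpl7a and Rpl24 had signals of 29.1 and 32.0. The mm9 annotation gives Rpl24 a further start, and the mm9 peak at the same 7517 bp lay at −12 bp from it. On mm10 the Zbtb11 start is 2355 bp from the summit. In the mm9 annotation the nearest other start is that of Cep97, 38937 bp away, so Zbtb11 could not be weighed there. In Rpl23a and Rpl7a the highest value within 10 kb is thus not the promoter's, whereas in Rpl18 and Rpl24 that depends on the start used.

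Rpl39l, a copy of Rpl39 used in male germ cells, had own peaks that were not at its promoter. They had signals of 191 and 128 at 2161 and 1309 bp past the TSS, inside Rpl39l and, on mm9, in an intron. Their replicate ranks were 559 and 880 for the stronger peak and 1252 and 2093 for the weaker. The nearest other start, that of Atf7ip2, was over 20 kb away. Neither mm9 summit held any element searched.

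**Figure D4:**
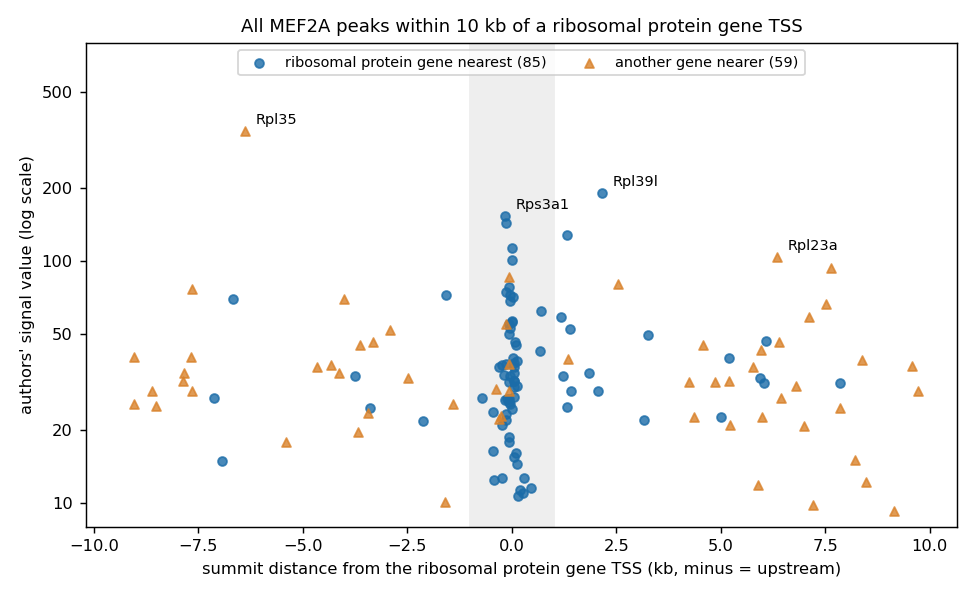
The 144 pairs of ribosomal protein gene and optimal peak within 10 kb. The x axis gives the summit distance from the ribosomal protein gene's TSS in kb and the y axis the signal (log). The grey band marks 1 kb to either side. The pairs of lowest signal, at Rpl17 (6.96), Rps23 (6.93), Rpl22 (6.76) and Rps29 (6.73), are counted but lie below the drawn axis. Blue circles (85) have the ribosomal protein gene as the nearest gene and orange triangles (59) another gene; the highest point, 346 near Rpl35, is orange and lies outside the band.

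The 2 builds did not give the same genes. Of the 86 genes on both, 31 had a summit within 1 kb in both lists, 21 on mm10 alone, 9 on mm9 alone and 25 on neither. The same overlap is not given for all genes, so the difference between builds cannot be called particular to these genes. Rpl24 is among the 31 with different peaks, its mm10 summit being at 61 bp and its mm9 summit at 7517 bp from the outermost TSS; in the others the strongest promoter summits of the builds lay within 1 kb of each other by that distance. The mm9 list is shorter, and Rps10 and Rpl14, the genes with the weakest promoter peaks, were on mm10 alone. So was Rpl3, although its promoter peak ranked 4392 on mm10; the nearest mm9 summit lay 6437 bp past its TSS. Others on mm10 alone, by mm10 signal, were Rps9 (44.9), Rpl13a (36.7), Rps29 (31.6), Rps15a (30.3), Rpl4 (29.7), Rpl7a (29.1), Rps28 (27.6) and Rpl23a (27.3). The 9 genes on mm9 alone were Rpl22, Rpl18, Rps27l, Rpl19 and Rps2, whose further starts are given above, and Rpl30, Rpl8, Rpl10a and Rpl17.

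No peak lay within 10 kb on either build for 14 of 86 genes, and the matching share of all genes is not given. The 14 were Rps21, Rpl34, Rpl32, Rps16, Rpl13, Rpl15, Rps14, Rpl10, Rps4x and Rpsa among core genes and Rps23rg1, Rps27rt, Rpl10l and Rpl36al among copies. Rpsa encodes a small subunit protein also known as the laminin receptor, Rps4x is the X-linked small subunit gene and Rpl10l is a testis copy of Rpl10. Of these 14 genes, large and small subunit genes are both among the core ones. Rpl32l, without a place on mm9, had no peak on mm10.

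The remaining genes fall between. Own distal peaks alone were found for Rpl37a, Rpl12, Rpl22, Rps13, Rps27l, Rps27a, Rpl39l, Rps2 and Rpl17. Neighbours' peaks alone were found for genes that include Rpl7, Rpl35, Rpl37rt, Rpl18, Rplp2, Rpl19, Rpl8, Rpl3l and Rps18.

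The MEF2 element itself was searched on mm9, whose genome sequence was at hand, within 50 bases of each summit and on both strands. It was found in 0 of 40 promoter peaks of ribosomal protein genes. That count allows a share of up to 7.5% with 3 of 40 taken as the limit, or 8.76% by the Wilson interval. The shares were 115 of 3614 (3.18%) for all promoter peaks and 8.4% for peaks more than 10 kb from any TSS. The 8.4% lies between these limits. At this number of peaks a share like that of all promoter peaks could not be told from absence. Of the 64 different mm9 peaks within 10 kb of a ribosomal protein gene, 2 (3.12%) held it, against 7.13% of the whole mm9 list, and both are neighbours'.

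These 2 sites are shown on the plus strand of mm9 with the element in capitals and 10 bases to either side. The last line shows the element found in the promoter of Rpl23a, on its own (minus) strand, from −44 to −35.
Nek8 intron, near Rpl23a, chr11:77989380-77989409: tacattgtagCTATTTTTAGacacaccaga
Between genes, near Rpl19 and Stac2, chr11:97897377-97897406: ccccctgcgcCTATAAATAGctcaggacac
Rpl23a promoter, chr11:77997111-77997140: ccaatcagtgCTATATATAAgctatcgcga
The Nek8 summit ranked 1361 on mm9 and the one near Rpl19 ranked 10967. The Rpl23a promoter, in contrast, had no mm9 summit within 1 kb. In all, 2 of 86 ribosomal protein promoters (250 bases before to 50 after the TSS) held the element, those of Rpl23a and Rpl17, against 3.07% of all promoters; at Rpl17 it begins at −136, and the mm9 summit is at −78 bp. The shorter core of the element was met at 1 promoter summit, that of Rps2.

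Other elements differed in frequency between ribosomal protein promoters and all promoters in both directions, as counts with no test. ETS matches were in 24 of 86 (27.9%, 19.5 to 38.2), against 10.8% of all promoters, and the palindrome TCGCGA was in 15 of 86 (17.4%, 10.9 to 26.8), against 3.27%. YY1 (AANATGGC) was in 11.6% (6.44 to 20.1), against 6.54%, and Sp1 and KLF in 48.8% (38.6 to 59.2), against 43.4%, and both intervals take in the background. Lower in ribosomal protein promoters were NF-Y with 33.7%, against 38.0%, AP-1 with 4.65%, against 6.92%, and the TATA box with 6.98%, against 9.06%, all with intervals that take in the background. The octamer was in 0 of 86, against 1.72%. A run of at least 8 pyrimidines within 10 bases of the TSS was in 27.9%, against 13.8%, and one of at least 5 in 58.1%, against 45.4%. ETS matches were about as frequent in the 40 ribosomal protein promoters with an mm9 peak (27.5%) as in the 46 without (28.3%), and so were runs of at least 8 pyrimidines (30.0% and 26.1%). The promoter searched is that of the outermost mm9 start, whereas a peak may lie at any transcript start. In Rpl24, Rps2 and Rpl30 the summit held an ETS match that the searched promoter lacked. For Rpl35 the searched promoter held none of the ETS, Sp1 and KLF and NF-Y matches of the RefSeq one printed above. These shares therefore do not always describe the sequence under the peak. A match is a run of letters and not a site shown to be bound.

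Around the summits the differences were smaller or rest on few peaks. Within 50 bases of the 40 promoter summits of ribosomal protein genes, Sp1 and KLF matches were in 12 (30.0%), ETS matches in 7 (17.5%, 8.75 to 31.9), YY1 matches in 4 (10%, 3.96 to 23.1) and the palindrome in 2 (5.0%, 1.38 to 16.5). Among all 3614 promoter peaks the shares were 26.6% for Sp1 and KLF, 12.5% for ETS, 3.9% for YY1 and 1.41% for the palindrome. With 40 peaks, the intervals for ETS, for Sp1 and KLF and for the palindrome take in the share of all promoter peaks. Of the 40 summits, 13 were in an exon, 5 in an intron and 22 between genes by the GENCODE annotation of mm9.

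**Figure D5:**
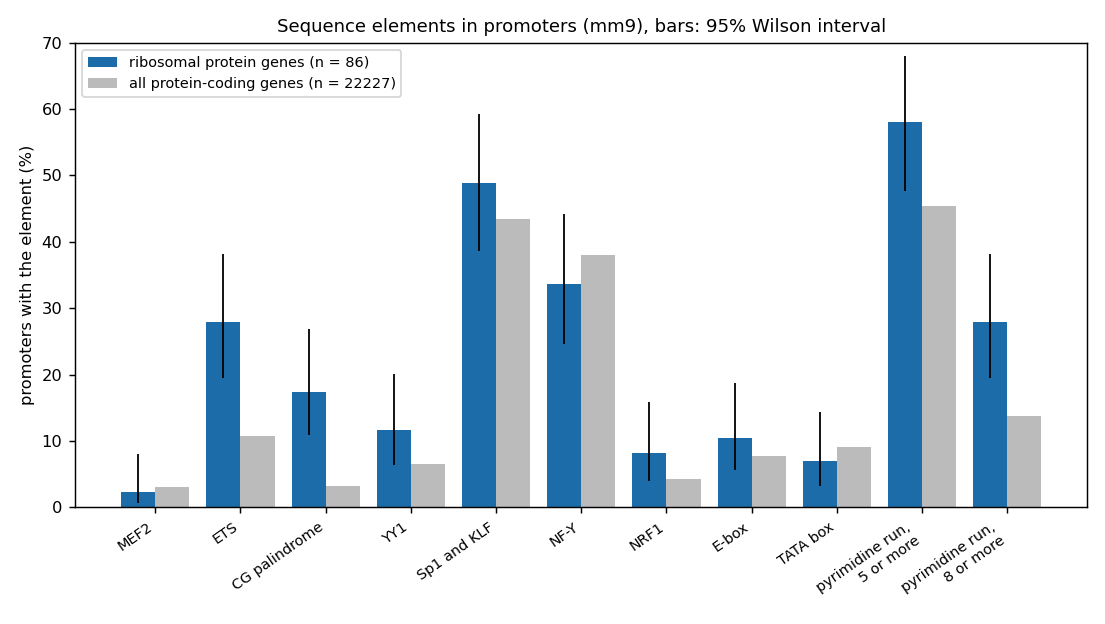
Share of promoters (250 bases before to 50 after the outermost mm9 TSS) that hold each sequence element, in 86 ribosomal protein genes (blue, with 95% Wilson intervals) and in 22227 protein-coding genes (grey), on a percent axis from 0. The ETS, palindrome and long pyrimidine run bars of ribosomal protein genes (27.9, 17.4 and 27.9%) stand above those of all genes, while the MEF2 bars (2.33 and 3.07%) do not.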

How the data were processed

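MEF2A ChIP-seq of 2 biological replicates of CH12.LX was analysed from peak lists. Per the labels and the texts deposited with the files, the authors called peaks on each replicate with a control, on the pooled reads, and made optimal and conservative sets by reproducibility (IDR), all on mm10, and a further list from both replicates on mm9. No source used here names the aligner or the peak caller. The signal of each peak is the authors' deposited value and was used only for ranks within a list. The genes and lists were chosen with earlier results of these data known. On mm10 each gene had its outermost RefSeq TSS (GRCm38.p6), with strand from RefSeq's promoter table or GENCODE vM1. On mm9 peaks were set against every protein-coding transcript TSS of GENCODE vM1, and all peak ends lay within its chromosome lengths. Promoter elements on mm9 were searched at the outermost start alone. Promoter sequences came from RefSeq, where 69 of 89 genes matched by gene ID, so shares of elements use the mm9 genome instead. Scripts ran in Python 3.11.15 with pandas 2.3.3 and pysam 0.24.0 and were tested on simulated peaks and planted elements. Named were the 12 strongest promoter genes, the 6 strongest peaks nearer another gene, genes without peaks, genes that differ between builds, and shared promoters. Values are also given for other genes outside these rules. Among them Rpl11, Rps6, the stalk genes and Rpl39l were chosen after their values were seen. Alternatives included each replicate alone, the conservative set, stronger peaks, other windows and other starts. A few genes are counted in totals but are not reported here by name or in the plot of single genes.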

Additional observations from a re-analysis of the deposited data

How the results depend on the processing

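No median distance changed sign, but the comparison with all genes turned for the median percentile in replicate 2 and on mm9 (42.3 against 49.0, and 31.0 against 39.2), and for the median distance on mm9 (−40 against −44 bp). Keeping the stronger 50% of peaks left 28 ribosomal protein genes within 1 kb and 46 within 10 kb on mm10, and 14 and 19 on mm9, by construction since fewer peaks were counted. With each replicate alone, 58 to 61 genes had a summit within 1 kb and 74 to 75 within 10 kb, 52 to 53 had an own promoter peak, and 4 to 7 had neighbours' peaks alone. On mm9 the last count was 6. Shares of all genes are not given for the stronger 50% of peaks. They are also not given for the 10 kb and own promoter counts of each replicate, or for the mm9 count of neighbours' peaks alone. Those counts therefore cannot be set against other genes. The median percentile was 42.3 to 59.8 with each replicate alone and 31.0 in the mm9 list. The median summit distance was −46 bp in the conservative set, −48.5 to −44 bp with each replicate alone and −40 bp on mm9, against a replicate SD of 3.18 bp; the cause was not tested. A MEF2 element was found at 1 promoter peak with 100 bases to either side of the summit or with the whole interval (Rpl17), and at 1 with the core form (Rps2). Counting every annotated start for neighbours too, and comparing the strongest part across lists, were chosen after seeing the data. No paired analysis was possible because there is 1 group. The files give peaks and no reads, so depth sets an unknown limit on weak peaks such as that of Rps10.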

Other observations

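Single own distal peaks of ribosomal protein genes are given here as examples, and no pattern across them was tested. A peak with a signal of 46.8, with replicate ranks 10764 and 11159, lies between Rps19 and Cd79a, which encodes a signalling chain of the B cell antigen receptor. It is 6090 bp past the TSS of Rps19 and at −6815 bp from that of Cd79a, so the nearest-gene rule gives it to Rps19 by a narrow margin. Rps27a, which encodes a ribosomal protein fused to ubiquitin, had no promoter peak, and its own peak of 72.6 lies at −1578 bp from its TSS, inside Clhc1, and 1668 bp from the TSS of that gene. Rps3a1, which had the strongest promoter peak, also had an own distal peak of 69.9 at −6668 bp, and the mm9 peak there, at rank 4542, held the octamer at its summit.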
